A study of Mus musculus with 22 samples.

Results

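The 8 miRNAs described here are mature products that are typical of blood and immune cells, measured in round spermatids (RS), which are post-meiotic germ cells of the testis. They are mmu-miR-146a-5p, mmu-miR-146b-5p, mmu-miR-150-5p, mmu-miR-223-3p, mmu-miR-142a-5p, mmu-miR-142a-3p, mmu-miR-155-5p and mmu-miR-451a, written below without the prefix. They were taken by name from the 1966 mature miRNA names of the deposited count table, and all 8 passed the filter on low counts in every comparison. The question was whether they moved together from library to library and with genotype.

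RS were isolated from testes of mice aged 75 to 85 days. The 22 libraries fall into 4 groups. Experimental batch a holds wild-type mice (WT, n = 5) and mice lacking the testis RNA helicase GRTH/DDX25 (KO, n = 5). Experimental batch b holds WT (n = 6) and mice with a knock-in mutation that removes the phosphorylated form of GRTH (KI, n = 6). In both mutants RS fail to elongate, and the males are sterile. RS were enriched from digested testis by sedimentation, not by a sort on a surface marker. The paper reports that purity was checked by DAPI staining and microscopy, and that the cells used for small RNA were mostly RS. The sources used here do not say whether a library is 1 animal or a pool, so p-values measure the spread between these libraries, which may be technical in part.

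A miRNA is cut from a hairpin as a short strand and guides Argonaute to mRNAs that pair with its seed, the bases near its 5′ end. miR-142a is made in nearly all cells of the blood lineage, miR-223 chiefly in neutrophils and other myeloid cells, miR-150 in mature lymphocytes, and miR-155 in activated lymphocytes and macrophages. miR-146a and miR-146b are induced by inflammatory signalling and dampen it. miR-451a is the major miRNA of red blood cells and lies in a cluster with miR-144.

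The mature sequences show which of the miRNAs could be confused or could share targets. They are shown 5′ to 3′ from RefSeq on the build GRCm38.p6 for the 7 members that matched, with the seed (bases 2 to 8) in capitals.
miR-146a-5p: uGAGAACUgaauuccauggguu
miR-146b-5p: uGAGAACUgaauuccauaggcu
miR-223-3p: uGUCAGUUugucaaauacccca
miR-142a-5p: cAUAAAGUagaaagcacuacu
miR-142a-3p: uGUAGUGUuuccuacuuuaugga
miR-155-5p: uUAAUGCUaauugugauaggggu
miR-451a: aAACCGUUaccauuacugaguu

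miR-146a-5p and miR-146b-5p have the same seed and are identical at 20 of 22 positions. They differ by G18A and U21C, counted from the 5′ end with the miR-146a-5p base first, both outside the seed. Reads of this pair that ended before the differing bases could be counted for either member or for both, so their split is uncertain. The other 5 seeds are shared with no other matched mature sequence.

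Each member has 1 locus on GRCm38. miR-142a-5p (chr11:87756867-87756887, plus strand) and miR-142a-3p (chr11:87756903-87756925, plus strand) are the arms of 1 hairpin in an intron of the lincRNA gene Mir142hg, and Mir142b is annotated on the opposite strand. miR-451a (chr11:78073186-78073207, plus strand) and miR-146a-5p (chr11:43374435-43374456, minus strand) lie on the same chromosome at separate loci. miR-451a has Mir451b on the opposite strand, and the counting used strand. miR-155-5p (chr16:84714143-84714165, plus strand) lies in an exon of the lincRNA gene Mir155hg, miR-146b-5p (chr19:46342790-46342811, plus strand) in an intron of Mfsd13a, and miR-223-3p (chrX:96242884-96242905, plus strand) in an exon of F630028O10Rik. miR-150-5p (chr7:45121762-45121783, plus strand) overlaps only its own gene, Mir150.

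Total counts were 870913 to 1081333 in WT of batch a, 559957 to 881323 in KO, 2067322 to 3239357 in WT of batch b and 2107461 to 3101145 in KI. Levels below are CPM, which put libraries of unequal depth on 1 scale, with TMM factors over all 22 libraries. The 14 germ cell miRNAs of a fixed list, among them members of the miR-34, miR-449, miR-465 and miR-741 groups, were all measured and summed to between 191248 and 450481 CPM in every library. The 8 members summed to 4704 to 5637 CPM in WT of batch a, 5221 to 7228 in KO, 3502 to 4539 in WT of batch b and 4301 to 6632 in KI.

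The members spanned a wide range of abundance. miR-142a-3p was the most abundant, ranking between 29 and 47 among all miRNAs by group mean, with 4205 ± 413 CPM (SD, n = 5) in WT of batch a and 2866 ± 310 CPM (SD, n = 6) in WT of batch b. miR-142a-5p, miR-146a-5p and miR-146b-5p lay between 224 and 628 CPM in every group mean, and miR-155-5p and miR-223-3p between 60.2 and 156 CPM. The rarest were miR-451a, with group means of 33.9 to 51.5 CPM, and miR-150-5p, with 9.86 to 38.7 CPM. In WT of batch a the order was miR-142a-3p, miR-142a-5p, miR-146a-5p, miR-146b-5p, miR-155-5p, miR-223-3p, miR-451a and miR-150-5p. The ranges of neighbours in that order overlapped except between miR-142a-3p and miR-142a-5p and between miR-146b-5p and miR-155-5p. miR-150-5p rested on 4 to 73 counts per library, where 3 counts correspond to 0.926 to 5.36 CPM, and its values carry the largest counting error of the 8.

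**Figure D1:**
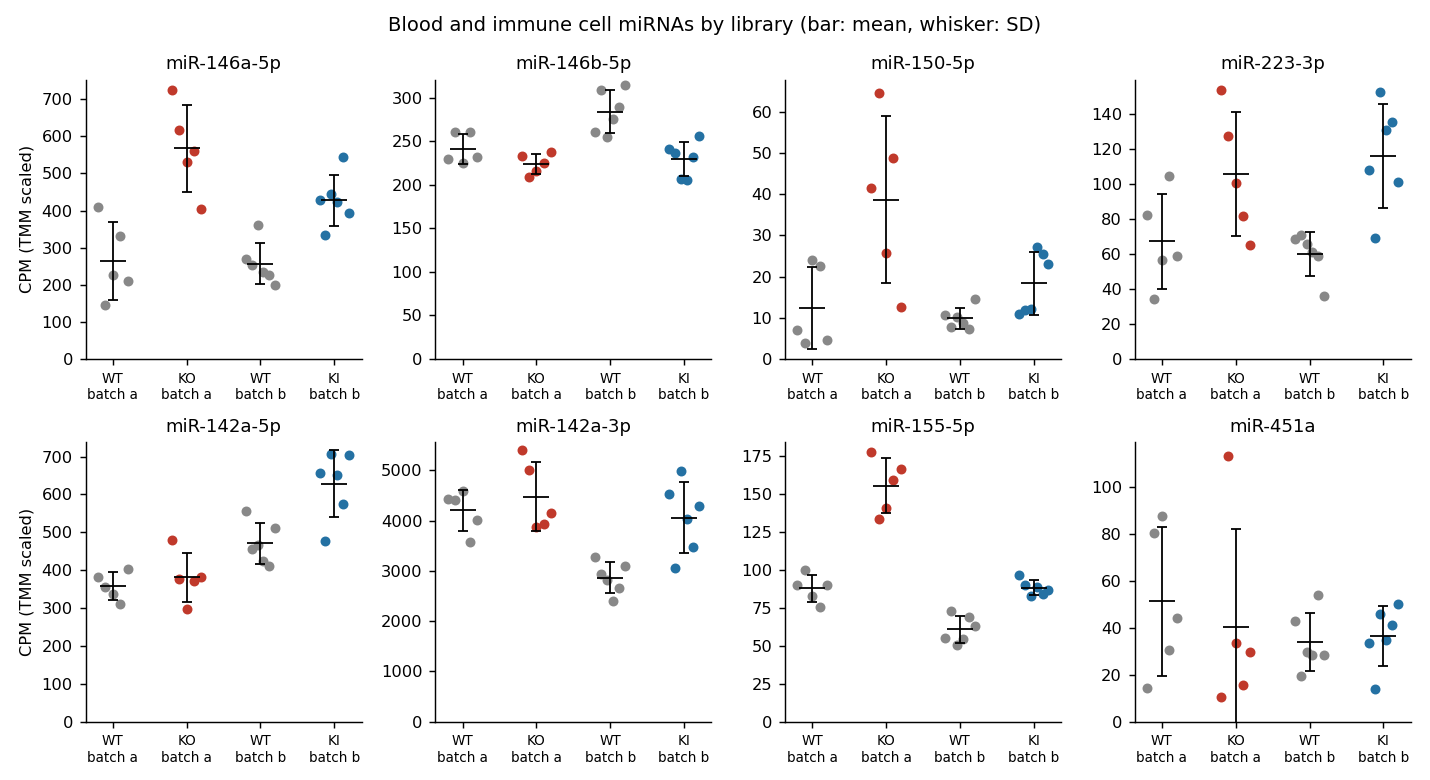
Level of each of the 8 miRNAs in every library, in CPM scaled by TMM on linear axes from 0, for WT and KO of batch a (n = 5 each) and WT and KI of batch b (n = 6 each). Points are libraries, the long bar is the mean and the whisker the SD. miR-155-5p separates mutant from WT in both batches without overlap. The groups did not overlap for 19.8% of all miRNAs tested in KO and 12.4% in KI. miR-451a spreads from 10.4 to 113 CPM in KO alone.

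The KO comparison asked which members differed in RS without GRTH. miR-146a-5p, miR-150-5p, miR-155-5p and miR-223-3p rose, while miR-146b-5p, both arms of miR-142a and miR-451a did not pass the test. Thus 4 of 8 members were called, all higher, where 41.9% of the 334 miRNAs tested were called in either direction, 21.3% were called higher and 20.7% lower (edgeR quasi-likelihood test, Benjamini-Hochberg adjusted p under 0.1). The median log2 fold change was 0.40 over the members and 0.01 over all miRNAs tested. In bulk RNA of this kind, a different number of cells of a type and a different amount of the miRNA per cell cannot be told apart.

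miR-155-5p had levels of 90.1, 100, 83.1, 75.7 and 90.2 CPM in WT and 178, 134, 141, 159 and 167 CPM in KO. Every KO library lay above every WT library. The 2 groups did not overlap, in either direction, for 19.8% of all miRNAs tested. Its log2 fold change was 0.85 ± 0.12 (SE, adjusted p = 0.000544), a 1.80-fold difference.

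miR-146a-5p had levels of 409, 145, 226, 331 and 209 CPM in WT and 723, 618, 532, 561 and 403 CPM in KO. The groups overlapped only through KO replicate 5 and WT replicate 1, and 4 of 5 KO libraries lay above all WT libraries. This was a log2 fold change of 1.13 ± 0.24 (SE, adjusted p = 0.00637), a 2.19-fold difference.

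miR-150-5p had levels of 7.09, 3.88, 24, 22.6 and 4.6 CPM in WT and 41.5, 64.7, 25.7, 48.8 and 12.7 CPM in KO. WT libraries split into a pair above 20 CPM and 3 libraries below 10, and KO replicate 5 fell between them. Its fitted log2 fold change was 1.64 ± 0.51 (SE, adjusted p = 0.0273), the largest among the members and the least precise of those called.

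miR-223-3p had levels of 82.0, 34.0, 56.3, 105 and 58.9 CPM in WT and 153, 128, 101, 81.8 and 65.0 CPM in KO. Only 2 of 5 KO libraries lay above all WT libraries. The log2 fold change was 0.68 ± 0.29 (SE, adjusted p = 0.0892), and the call was lost without any 1 of WT replicates 2, 3 and 5 or KO replicates 1, 2, 3 and 4, with values of 0.52 to 0.75 and adjusted p of 0.101 to 0.183 in edgeR.

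miR-142a-3p had levels of 4424, 4419, 4591, 3567 and 4022 CPM in WT and 5408, 5007, 3874, 3936 and 4160 CPM in KO. The groups overlapped broadly, and KO replicates 1 and 2 were the highest. Its log2 fold change was 0.11 with a 95% interval of -0.10 to 0.33 (adjusted p = 0.391), and with scaling by library size alone, which raised the median of all miRNAs to 0.13, it was 0.23 with an adjusted p of 0.0993.

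The partner arm miR-142a-5p, at 312 to 404 CPM in WT and 298 to 480 CPM in KO, had a log2 fold change of 0.12 with a 95% interval of -0.13 to 0.36 (adjusted p = 0.427). miR-146b-5p, which shares its seed with miR-146a-5p, was at 225 to 260 CPM in WT and 209 to 237 CPM in KO. Its log2 fold change was -0.08 with a 95% interval of -0.28 to 0.11 (adjusted p = 0.48), and 0.03 with scaling by library size alone. These intervals leave out changes as large as those of miR-146a-5p and miR-155-5p.

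miR-451a had levels of 14.2, 80.6, 87.7, 30.6 and 44.2 CPM in WT and 10.4, 113, 33.5, 15.8 and 29.7 CPM in KO. The highest and the lowest of all 10 libraries were both KO, with a 10.9-fold range within that group and a coefficient of variation of 103%. The log2 fold change was -0.25 with a 95% interval of -1.54 to 1.04 (adjusted p = 0.766). This interval leaves out the fitted values of miR-146a-5p and miR-150-5p but not those of miR-155-5p and miR-223-3p. It overlaps the intervals of miR-146a-5p (0.60 to 1.66) and miR-150-5p (0.54 to 2.75), so a difference from them was not shown. Single libraries moved the log2 fold change of miR-451a further, to 0.03 without WT replicate 3, 0.00 without KO replicate 1 and -1.16 without KO replicate 2 (edgeR adjusted p of 0.972, 0.9996 and 0.127).

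The KI comparison asked the same of RS that have GRTH but lack its phosphorylated form. Here 7 of 8 members were called, 6 higher and 1 lower, where 38% of the 387 miRNAs tested were called, 18.1% higher and 19.9% lower. Only miR-451a did not pass. The median log2 fold change was 0.54 over the members and 0.00 over all miRNAs tested, and the 7 members were called under each alternative tried and without any single library.

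miR-223-3p ranged from 36.3 CPM (median 63.3) to 71.0 CPM in WT and from 68.9 (median 119) to 153 CPM in KI. All KI libraries except replicate 2 lay above all WT libraries. The rise was 0.97 ± 0.19 on the log2 scale (SE, adjusted p = 0.00201), a 1.96-fold difference.

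miR-150-5p ranged from 7.20 (median 9.45) to 14.5 CPM in WT and from 10.8 (median 17.5) to 27.2 CPM in KI. KI libraries fell into a lower and a higher set of 3 each, and only the higher set lay above all WT libraries. The log2 fold change was 0.90 ± 0.28 (SE, adjusted p = 0.0242).

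miR-146a-5p ranged from 198 (median 245) to 360 CPM in WT and from 334 (median 425) to 545 CPM in KI, and 5 of 6 KI libraries lay above all WT libraries. Its log2 fold change was 0.75 ± 0.15 (SE, adjusted p = 0.00228). The seed partner miR-146b-5p went the other way, from 255 (median 283) to 315 CPM in WT and from 206 (median 234) to 256 CPM in KI, and its log2 value changed by -0.29 ± 0.08 (SE, adjusted p = 0.0182).

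miR-155-5p ranged from 50.5 (median 59.1) to 72.8 CPM in WT and from 83.1 (median 87.9) to 96.8 CPM in KI. It was the only member whose groups did not overlap in this batch, where 12.4% of all miRNAs tested did not. Its log2 fold change was 0.56 ± 0.09 (SE, adjusted p = 0.000596).

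miR-142a-3p ranged from 2412 (median 2880) to 3277 CPM in WT and from 3069 (median 4159) to 4983 CPM in KI, and rose by 0.52 ± 0.10 on the log2 scale (SE, adjusted p = 0.00175). miR-142a-5p ranged from 412 (median 461) to 557 CPM in WT and from 477 (median 654) to 706 CPM in KI, and rose by 0.44 ± 0.10 (SE, adjusted p = 0.0048). For each arm, KI replicate 2 alone fell within the WT range.

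miR-451a, the red blood cell miRNA, ranged from 19.4 (median 29.2) to 54.0 CPM in WT and from 14 (median 38.2) to 50.2 CPM in KI. KI replicate 2 lay below the WT range, and no KI library lay above it. The log2 fold change was 0.11 with a 95% interval of -0.48 to 0.71 (edgeR adjusted p = 0.78).

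**Figure D2:**
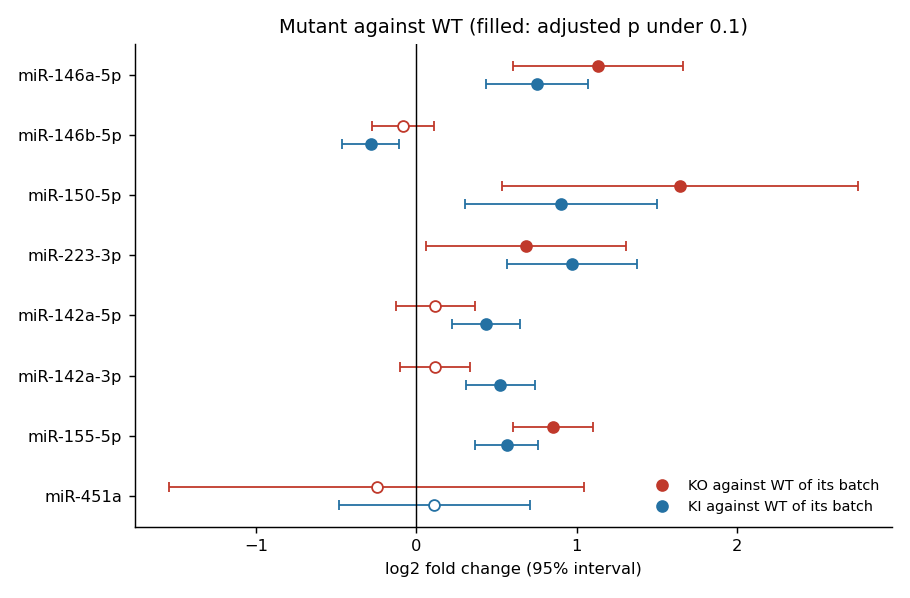
Log2 fold change of each member in KO and in KI against the WT libraries of the same batch, with 95% intervals, from edgeR. Filled points have an adjusted p under 0.1: 4 members in KO and 7 in KI. miR-451a has the widest interval in KO, from -1.54 to 1.04.

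The KO and KI effects were compared in 1 fit of all 4 groups, in which 0 of 8 members and 0 of 421 miRNAs passed in edgeR (0% called), with 67 of 421 at an unadjusted p under 0.05. DESeq2 also called 0, but over all miRNAs 26 of 420 passed without KI replicate 2, 1 of 421 without WT replicate 1 of batch b, and 25 of 421 with the replicate number as a block. Among the members, miR-142a-3p alone had an unadjusted p under 0.05. Its KO effect was lower than its KI effect by a log2 difference of -0.41 with a 95% interval of -0.75 to -0.08 (edgeR adjusted p = 0.219). It passed only without KI replicate 2, at -0.49 (adjusted p = 0.0621). For miR-142a-5p, called in KI and not in KO, the difference was -0.32 with a 95% interval of -0.66 to 0.02 (adjusted p = 0.362). The other members had adjusted p of 0.373 to 0.804, so no member's KO and KI effects were shown to differ. KO was measured only in batch a and KI only in batch b. A difference between the mutants and a difference between the batches therefore cannot be told apart. The paper judged that a KI against KO contrast could not be made with confidence because of the batch effect.

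Between the WT groups, 3 of 8 members differed, 2 lower and 1 higher in batch b, where 56.7% of the 383 miRNAs tested differed, 29.8% lower and 26.9% higher. miR-142a-3p was lower in batch b by a log2 difference of -0.62 ± 0.10 (SE, adjusted p = 8.05e-05), and miR-155-5p by -0.59 ± 0.13 (SE, adjusted p = 0.00136). miR-142a-5p was higher in batch b by 0.34 ± 0.10 (SE, adjusted p = 0.0135), but by 0.01 (adjusted p = 0.914) with scaling by library size alone, which moved the median of all miRNAs from -0.01 to -0.34. These 3 members did not overlap between the WT groups, which held for 37.9% of all miRNAs tested. The other 5 members did not pass in edgeR, and of them miR-146b-5p (0.18, adjusted p = 0.102) passed at 0.21 in DESeq2 (adjusted p = 0.0474).

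Ratios within a library do not depend on how libraries are scaled. They were added after the levels had been seen, as 6 two-sided exact permutation tests of log2 ratios. The ratio of miR-146a-5p to miR-146b-5p was 1.10 ± 0.457 (SD, n = 5) in WT of batch a and 2.54 ± 0.550 in KO. In batch b it was 0.923 ± 0.273 (SD, n = 6) in WT and 1.88 ± 0.364 in KI. The log2 ratio was higher by 1.28 in KO (exact p = 0.0159, adjusted 0.0317) and by 1.05 in KI (exact p = 0.00216, the smallest that this design allows, adjusted 0.013). KI and WT ratios did not overlap, while KO replicate 5, at 1.70, lay below WT replicate 1, at 1.78.

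The ratio of miR-142a-5p to miR-142a-3p followed the batch. It was 0.0856 ± 0.0100 (SD, n = 5) in WT and 0.0855 ± 0.00884 in KO of batch a, against 0.165 ± 0.00840 (SD, n = 6) in WT and 0.156 ± 0.0102 in KI of batch b. The WT groups did not overlap and differed by 0.95 in the log2 ratio (exact p = 0.00433, the smallest that this design allows, adjusted 0.013). Within batches the log2 ratio differed by 0.00 in KO (exact p = 0.992) and by -0.08 in KI (exact p = 0.128, adjusted 0.192). Every library of batch b also had a higher total of miRNA counts than any of batch a, and batch and total counts cannot be told apart.

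**Figure D3:**
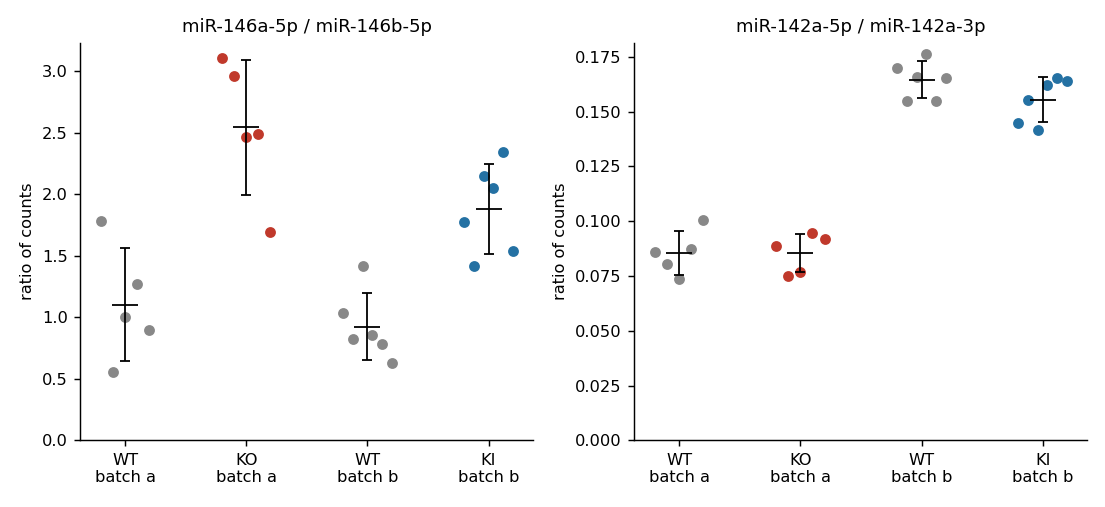
Ratio of counts within each library, for miR-146a-5p over miR-146b-5p (left) and for miR-142a-5p over miR-142a-3p (right), on linear axes from 0. Points are libraries, the long bar is the mean and the whisker the SD. The left ratio is higher in KO and KI than in the WT of their batch, and the right ratio differs between the batches, 0.0856 against 0.165 in WT, and little between genotypes.

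To ask whether the members moved together within groups, each library's log2(CPM + 1) was expressed as the deviation from its group mean, and the 28 pairs of members were correlated over the 22 libraries with 100000 permutations within groups. Only 2 pairs passed (adjusted p under 0.1), and 4 had an unadjusted p under 0.05. Of the 28 coefficients, 14 were positive, and they ran from -0.47 to 0.84. Their median was 0.03, beside 0.00 over the 88410 pairs of all 421 miRNAs, which had a 95th percentile of 0.538. Most pairs of members were thus not shown to rise and fall together from library to library.

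The myeloid miR-223-3p and miR-146a-5p formed the first pair, with Pearson's r = 0.836 (permutation p = 3e-05, adjusted 0.00042) and Spearman's rho = 0.831 (permutation p = 5e-05). The coefficient was 0.902 in batch a (permutation p = 0.00182) and 0.714 in batch b (permutation p = 0.0191). It was 0.821 without the 2 libraries farthest from the median of miR-146a-5p. WT replicate 2 of batch a, KO replicate 5, WT replicate 6 of batch b and KI replicate 2 were the lowest of their groups for miR-223-3p, and each was also the lowest of its group for miR-146a-5p.

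The arms of miR-142a formed the second pair, with r = 0.806 (permutation p = 3e-05, adjusted 0.00042) and rho = 0.773 (permutation p = 0.00015). The coefficient was 0.662 in batch a (permutation p = 0.0621) and 0.917 in batch b (permutation p = 0.00014), and 0.708 without the 2 farthest libraries. The arms come from 1 hairpin. With miR-223-3p, miR-142a-5p had r = 0.212 and miR-142a-3p r = 0.242, and neither passed (permutation p = 0.375 and 0.299).

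The lymphocyte miRNAs miR-150-5p and miR-155-5p, which both rose in KO and KI, had a negative coefficient within groups, r = -0.47 (permutation p = 0.0302, adjusted 0.211). miR-155-5p was instead positive with miR-146b-5p, r = 0.554 (permutation p = 0.0128, adjusted 0.119). Neither pair passed. miR-451a had coefficients of -0.34 to 0.25 with the other 7 members, and none passed. Its coefficient changed sign between batch a and batch b with miR-146a-5p (-0.55 and 0.28), miR-223-3p (-0.36 and 0.47) and miR-142a-5p (-0.36 and 0.55). Each of these had a permutation p over 0.05. With the other members the sign was the same in both batches.

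**Figure D4:**
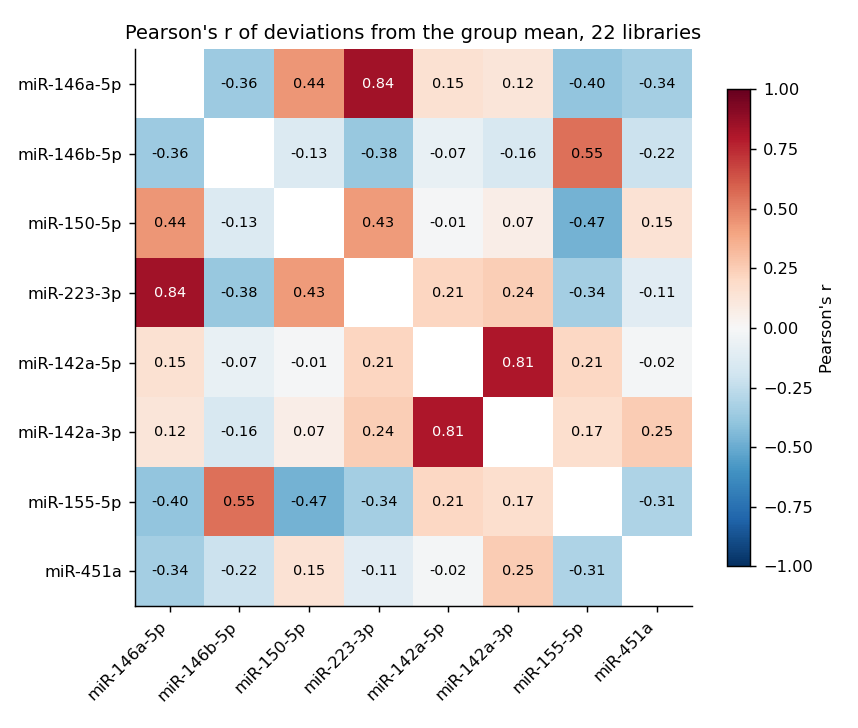
Pearson's r for each pair of members over 22 libraries, computed on deviations of log2(CPM + 1) from the group mean, on a colour scale from -1 (blue) to 1 (red). Only miR-146a-5p with miR-223-3p (0.84) and miR-142a-5p with miR-142a-3p (0.81) passed after adjustment over the 28 pairs.

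**Figure D5:**
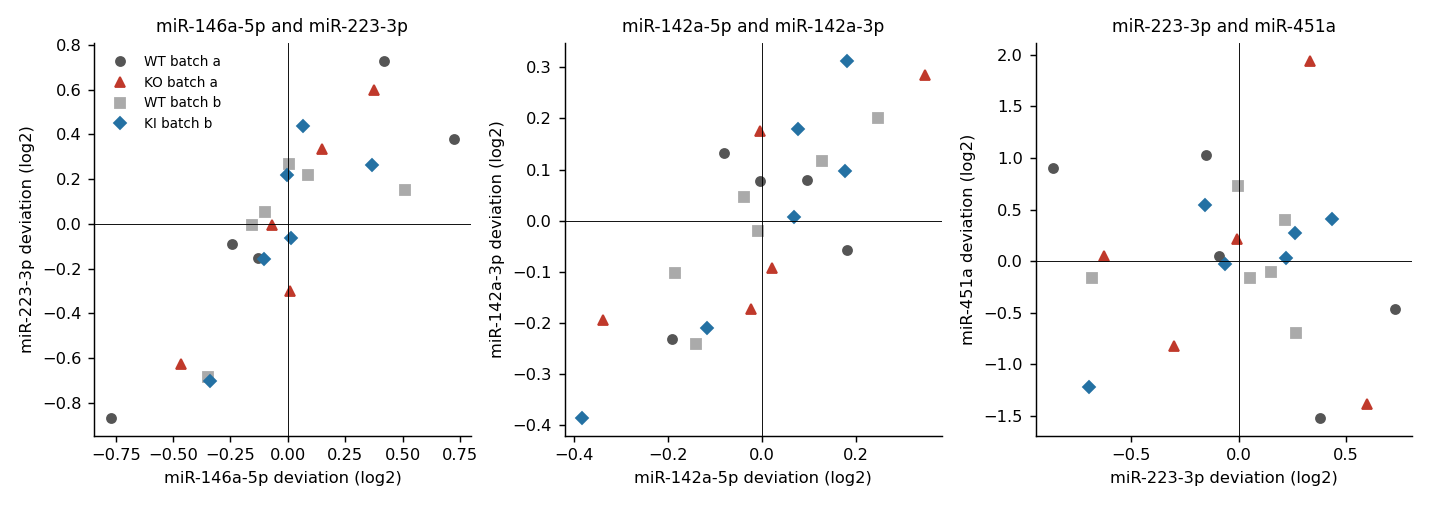
Deviation of each library from its group mean, in log2(CPM + 1), for miR-146a-5p and miR-223-3p (r = 0.836), for miR-142a-5p and miR-142a-3p (r = 0.806) and for miR-223-3p and miR-451a (r = -0.11). Each point is a library and the symbol its group. Points of the first 2 panels lie mostly in the lower left and upper right, and those of the third on all sides of the origin.

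The miRNAs outside the list with the most similar deviations were found among those with a mean of at least 10 CPM, 3 for each member, as a description over the 22 libraries. They share library and depth with the members. For miR-223-3p they were miR-23a-3p (r = 0.879), miR-199a-3p (r = 0.855) and miR-199b-3p (r = 0.854), and for miR-146a-5p the same names followed, with r of 0.820, 0.720 and 0.719. miR-199a-3p, with 2 loci, and miR-199b-3p, with 1, have the same mature sequence in RefSeq, and the count of the first was between 1.998 and 2.003 times that of the second in every library, so they are not separate measurements. In batch a and batch b taken apart, miR-223-3p and miR-199a-3p had r of 0.866 and 0.837.

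Nearest to miR-142a-3p were miR-21a-5p (r = 0.846), which many cell types make, miR-881-3p (0.821) and miR-29b-3p (0.779), and nearest to miR-142a-5p were miR-30e-3p, miR-135a-5p and miR-30b-5p (0.758 each). For miR-155-5p they were the germ cell miRNA miR-34c-5p (0.675), with 0.893 in batch a and 0.413 in batch b, miR-128-3p (0.662) and miR-7210-3p (0.636). miR-146b-5p shared the latter names, with miR-7210-3p at 0.740 and miR-128-3p at 0.732, and had miR-93-5p at 0.737. The lymphocyte miR-150-5p was nearest to miR-24-3p (0.817), let-7e-5p (0.779) and let-7b-5p (0.708), the last with 0.908 in batch a and -0.23 in batch b. For miR-451a they were miR-1843b-5p (0.667), with 0.819 in batch a and 0.452 in batch b, miR-669f-5p (0.634) and miR-143-3p (0.492).

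miR-144-5p, which comes from the cluster of miR-451a, lay below the level this rule required, with group means of 7.32 to 12.4 CPM. Its deviations were compared with those of miR-451a after the levels had been seen. Pearson's r was 0.919 and Spearman's rho 0.938 (permutation p = 1e-05 for each, the smallest that 100000 permutations can give). The coefficient was 0.933 in batch a (permutation p = 7e-05) and 0.893 in batch b (permutation p = 0.00092), and 0.908 without the 2 farthest libraries. miR-144-5p did not pass in KO (0.53, adjusted p = 0.469) or KI (0.46, adjusted p = 0.315) in edgeR.

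Lists of miRNAs typical of other cells were read beside the members. Of 7 further erythroid names 1 was abundant enough to test, miR-144-5p, and 2 names, miR-486b-3p and miR-451b, were at 0 in all libraries. The list summed to 5.06 to 30.5 CPM in WT and 3.46 to 62.9 CPM in KO of batch a, and to 11.4 to 20.1 CPM in WT and 4.98 to 27.7 CPM in KI of batch b. Of 11 further leukocyte names, among them the passenger arms of the members, 3 were tested in KO and none passed, and 2 were tested in KI, where miR-342-3p was lower (-0.49, adjusted p = 0.000744 in edgeR). This list summed to 3228 to 3494 CPM in WT and 2582 to 3572 CPM in KO of batch a, and to 7448 to 8276 CPM in WT and 6872 to 8513 CPM in KI of batch b, mostly from miR-21a-5p and miR-342-3p.

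The passenger arms were rare. Over all 22 libraries miR-223-5p had 105 counts, miR-146b-3p 81, miR-146a-3p 4, miR-150-3p 1 and miR-155-3p 0. miR-142a was the only hairpin here with both arms among the members.

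The tested names of the smooth muscle and stroma list rose in both mutants. Of the 7 names on the list 4 were tested, and all 4 were called higher in KO and in KI. Among them miR-199a-3p and miR-199a-5p are arms of the same hairpins, so the 4 are not separate observations. Over all miRNAs tested, 21.3% were called higher in KO and 18.1% in KI. In KO and KI, miR-143-3p rose by 1.02 and 0.58, and miR-145a-5p by 0.57 and 0.52. The arms miR-199a-3p and miR-199a-5p rose by 0.96 and 0.78 and by 1.01 and 0.85 (log2, edgeR adjusted p of 0.00709 to 0.0594 for the 4 names). The list summed to 634 to 1857 CPM in WT and 1812 to 3743 CPM in KO of batch a. In batch b it summed to 1203 to 2041 CPM in WT and 2064 to 4785 CPM in KI. These sums include miR-199a-3p, with group means of 1050 to 2268 CPM, whose reads were counted at each of its 2 loci. None of the list's names was at 0. The part of this list in the rise of miR-146a-5p, miR-150-5p, miR-155-5p and miR-223-3p was not tested.

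Of 4 endothelial names 1 was tested, miR-126a-3p, and did not pass (0.38 in KO and -0.04 in KI). The list summed to 139 to 428 CPM across all libraries, with miR-126b-5p at 0. Of 2 muscle names, miR-1a-3p was higher in KO (1.79, adjusted p = 0.0417 in edgeR), and neither passed in KI. The muscle list summed to 8.10 to 147 CPM in batch a and 38.1 to 758 CPM in batch b. Of the 14 germ cell names 1, miR-449c-5p, was higher and 9 lower in KO, and 9 were lower and 0 higher in KI, with medians of -0.25 and -0.29. Over all miRNAs tested, 20.7% were called lower in KO and 19.9% in KI, and 21.3% and 18.1% higher. The medians over all miRNAs tested were 0.01 and 0.00.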

How the data were processed

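Small RNA libraries of RS were compared in 4 groups taken from the sample labels (batch by the letter in the title). The deposited table holds counts, whole numbers of reads per mature miRNA. Per the labels and the methods, the authors trimmed reads with cutadapt 3.4 (minimum length 15), aligned them to GRCm38 with Bowtie2 2.4.2 in local mode with up to 100 alignments per read, and counted with featureCounts 2.0.1 by strand. The option for multi-mapped reads was not given. The count of miR-199a-3p, with 2 loci, was 1.998 to 2.003 times that of miR-199b-3p, with 1. Reads of that sequence were thus counted at each locus. Duplicates were not removed in the stated command, so reads are not independent molecules and floors cover counting error only. The intervals of the fold changes come from the edgeR fits and also include the spread between libraries. In the methods the batch with KI comes first, in the labels the batch with KO, and the labels were used. No column was left out (0 unused), and no 2 libraries held the same counts.

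Counts were tested with the quasi-likelihood test of edgeR 4.0.16 (R 4.3.3, TMM, filterByExpr), with genotype as the only term and each mutant against the WT of its batch. The threshold was the study's, a Benjamini-Hochberg adjusted p under 0.1 over all miRNAs tested. DESeq2 1.42.0, other scalings, filters and thresholds, each library left out and the replicate number as a block were alternatives. Correlations used log2(CPM + 1) and exact tests used Python 3.11.15 with scipy 1.17.1. The scripts were tested on simulated data. Both total counts and replicate numbers limit precision: the floor of 3 counts was 0.926 CPM in the deepest library and 5.36 CPM in the shallowest. All 8 members are named, with the 3 nearest other miRNAs of each and the called miRNAs of the marker lists (for the germ cell list, their number). The members and lists were chosen with earlier results of these data known.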

Additional observations from a re-analysis of the deposited data

Results flagged for a closer look

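In 32 sets of values (8 members in 4 groups), an extreme library was looked for by its gap to the next one, and 2 sets held one, where chance gives 1.6. WT replicate 6 of batch b had 36.3 CPM of miR-223-3p, and the other 5 libraries had 58.6 to 71.0 CPM. The gap was 0.714 of that group's range. In KI, replicate 2 had 14 CPM of miR-451a, and the other 5 had 33.6 to 50.2 CPM, with a gap of 0.680 of the range.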

How the results depend on the processing

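Of 810 values recomputed under the alternatives, 775 kept their direction and their side of the threshold (for counts, stayed within 1.5 times), 13 lost the call or the count, 16 gained it and 6 changed sign. The 6 sign changes were in values that were not called: miR-146b-5p in KO (0.027) and between the WT groups (-0.15) with scaling by library size alone, miR-146a-5p between the WT groups without the filter on low counts (0.003), and, with single libraries left out, miR-451a in KO (-1.158 to 0.034) and miR-146a-5p between the WT groups (-0.26 to 0.14). Members whose KO and KI effects differed numbered 0 to 1 when a library was left out, 1 without KI replicate 2. Member pairs called numbered 4 with CPM by library total, 1 in batch a alone (miR-146a-5p with miR-223-3p) and 1 in batch b alone (the arms of miR-142a). They numbered 2 to 6 when a library was left out, 4 without WT replicate 4 of batch a and 6 without KO replicate 1. Over all miRNAs, 26 of 420 differed between the KO and KI effects without KI replicate 2, against 0 of 421. Members called in KO numbered 3 to 4 when a library was left out. Causes of these changes were not tested.

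Deviations of same-numbered libraries had correlations of -0.11 to 0.18 in batch a and -0.11 to 0.52 in batch b. In these batches 2 of 5 and 3 of 6 libraries matched their own number best. Whether same-numbered libraries are paired was not tested. With the replicate number as a block, 4 members were called in KO, 7 in KI and 0 for the difference, as without it. Over all miRNAs the block gave 124 calls in KO, 165 in KI and 25 for the difference of the effects, against 0 without it. The depth limits miR-150-5p and miR-451a most.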
